A study of Mus musculus with 20 samples.

Results

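This set of 10 imprinted genes, which have been tied to the quiescence of blood stem cells, was followed through the first steps of blood formation: H19, Igf2, Igf2r, Grb10, Dlk1, Meg3, Ndn, Plagl1, Peg3 and Mest. They were chosen by symbol, with earlier results of these data known, and all 10 of 10 are among the 45706 genes counted. The counts come from 20 RNA sequencing libraries, each from mouse marrow sorted for long-term haematopoietic stem cells (LT-HSC), type 2 multipotent progenitors (MPP2) or type 3 multipotent progenitors (MPP3). All mice were young, 8 weeks old, on the C57BL/6 background, and either Hopx-wildtype (WT, 11 libraries) or Hopx-knockout (KO, 9 libraries). There were 4 WT and 3 KO libraries of LT-HSC, 3 and 3 of MPP2, and 4 and 3 of MPP3. Hopx encodes an atypical homeodomain protein without DNA binding of its own, and no other allele or treatment is named. The labels name no animal, so libraries may share one, and the p-values measure only the spread between these libraries.

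An imprinted gene is transcribed mainly from the copy inherited from one parent, as set by DNA methylation laid down in the egg or sperm. As background, Igf2, Dlk1, Ndn, Plagl1, Peg3 and Mest are expressed from the father's copy, and H19, Igf2r, Meg3 and, outside neurons, Grb10 from the mother's. Many imprinted genes act on growth: Igf2 is a growth factor, Igf2r is the receptor that removes it, and Grb10 is an adaptor that restrains insulin and IGF receptor signalling. Long-term stem cells divide rarely, and several imprinted genes are known to be expressed in them at higher levels than in their dividing progeny. The counts do not separate the parental copies, so they give the level of a gene and not its imprint.

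As a check of the labels, 10 of 11 WT libraries held Hopx reads and 0 of 9 KO libraries did. The library labelled WT LT-HSC replicate 4 had no Hopx reads. Reads in genes ran from 11163345 to 15189909 per library. The summed normalized count of 10 stem cell markers was 8193 to 15980 in LT-HSC, so the labelled stem cells carried their markers. Among the progenitors it was 8058 in WT MPP2 replicate 3 and 7988 in WT MPP3 replicate 2, close to the lowest LT-HSC library. The other progenitor libraries held at most 4168. Several libraries stood apart. Mature neutrophil markers summed to 25434 in KO LT-HSC replicate 1, 17042 in WT LT-HSC replicate 2, and 25622 and 18797 in replicates 2 and 3 of WT MPP3, against at most 518 in the other LT-HSC and MPP3 libraries. Among MPP2 libraries the sum was 7930 in WT replicate 2 and at most 784 in the others. The same 2 WT MPP3 libraries had erythroid sums of 56.5 and 68.6, against 11596 or more in the other MPP3 libraries, and granulocyte and monocyte precursor sums of 18549 and 24285, against 109140 or more. Early lymphoid markers summed to 189260 in WT MPP2 replicate 3. Its granulocyte and monocyte precursor sum was 74375, against at most 36558 in the other MPP2 libraries. Its megakaryocyte and platelet sum was 3805, against 13427 or more in the other MPP2 libraries. KO MPP2 replicate 3 had reads in the fewest genes (14931). KO LT-HSC replicate 2 had an erythroid sum of 24388, against at most 4277 in the other LT-HSC libraries.

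Starts of 9 of the 10 genes were found in the RefSeq promoter table (GRCm38.p6), with 16 start windows of 300 bases, 250 before and 50 after the start. The 250 bases before 3 of these starts are shown, with each CG pair, the site of DNA methylation, in capitals. They were picked because Grb10 and Meg3 are members whose levels changed below, and because Dlk1 is the neighbour of Meg3 in the same imprinted region.
Grb10, chr11:12037421-12037670, minus strand: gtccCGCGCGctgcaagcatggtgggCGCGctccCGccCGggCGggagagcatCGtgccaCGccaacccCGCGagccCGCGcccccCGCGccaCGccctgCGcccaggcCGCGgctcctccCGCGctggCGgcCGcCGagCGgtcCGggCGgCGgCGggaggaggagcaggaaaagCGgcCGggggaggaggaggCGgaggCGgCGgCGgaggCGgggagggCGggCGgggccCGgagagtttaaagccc
Meg3, chr12:109540746-109540995, plus strand: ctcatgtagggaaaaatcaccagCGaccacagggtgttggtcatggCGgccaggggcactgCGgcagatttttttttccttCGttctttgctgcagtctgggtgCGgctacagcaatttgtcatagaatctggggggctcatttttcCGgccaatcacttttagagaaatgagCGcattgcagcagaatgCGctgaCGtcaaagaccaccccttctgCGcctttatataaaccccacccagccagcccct
Dlk1, chr12:109452573-109452822, plus strand: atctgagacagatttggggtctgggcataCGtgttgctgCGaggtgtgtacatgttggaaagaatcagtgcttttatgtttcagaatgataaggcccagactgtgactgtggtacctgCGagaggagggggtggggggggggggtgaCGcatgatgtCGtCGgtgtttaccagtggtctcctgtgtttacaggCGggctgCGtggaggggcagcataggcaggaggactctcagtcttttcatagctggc
The Grb10 stretch holds 40 CG pairs and is 81.2% G or C, against 10 pairs and 52.4% for Meg3 and 8 pairs and 54.8% for Dlk1. Over the full 300 bases, the Grb10 window held more CG pairs than 98.1% of all 32851 windows, whose median was 7. Grb10 has a second start in the table, with 9 CG pairs, and the bases just after the first start are not in a GENCODE M21 transcript of the gene. The hexamer TGCCGC, which holds a CG pair, was read on both strands (GCGGCA on the other). It was present in 6 of the 16 member windows and in 11.6% of all windows. Of those 6 windows, 2 are overlapping Mest starts, so they stand for 5 genes. A match is a run of letters, not a bound site, and methylation was not measured.

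Values below are normalized counts, which are reads divided by the library's size factor, so that 1 is close to 1 read. On low counts, edgeR's filter kept 17160 genes for testing, among them 6 of the 10: Ndn, Grb10, Igf2r, Mest, Meg3 and Dlk1. H19, Igf2, Plagl1 and Peg3 did not pass. Log2 fold changes are differences between group means of log2(value + 1), a scale that understates the change of genes with few reads. A gene was called when its limma p, adjusted by Benjamini-Hochberg over all 17160 genes, was under 0.05.

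Between the stem cells and the progenitors the called members all went down. Ndn and Grb10 were lower in both MPP2 and MPP3 than in LT-HSC, and Meg3 was lower in MPP2. Ndn averaged 931 in LT-HSC against 113 in MPP2 and 48.8 in MPP3, Grb10 854 against 392 and 116, and Meg3 79.8 against 3.35 and 2.83. Averaged over both genotypes, 3 of the 6 tested members were called lower in MPP2 than in LT-HSC, where 7.32% of all genes were called and 5.08% were called lower. In MPP3 against LT-HSC, 2 of 6 were called lower, beside 7.4% of all genes called and 4.18% called lower. Meg3 passed the filter through its LT-HSC reads, so its place in these counts partly follows from the filter, and without the filter its adjusted p in MPP2 was 0.0517 and 1 member was called there. Without the filter, all 10 members lay below 0 in both comparisons, with medians of -1.73 and -1.24 against -0.056 and 0 for 30143 genes, of which 53.1% and 48.8% lay below 0. A bulk library cannot tell fewer cells that express a gene from less RNA per cell.

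Grb10 (chr11:11930508-12038683, minus strand, GRCm38, GENCODE M21, as for the positions below) was read in all 20 libraries and set the 3 populations in order. In WT LT-HSC its normalized counts were 801, 1164, 854 and 609, and in KO LT-HSC they were 1115, 593 and 839.6. In WT MPP2 they were 187, 400.3 and 356, and in KO MPP2 602, 340.1 and 468. In WT MPP3 they were 94.8, 77.9, 257 and 68.5, and in KO MPP3 126, 86.9 and 102. Every LT-HSC library lay above every MPP3 library, and this was the only pair of populations that any of the 10 genes separated completely. How many of all genes separate populations in this way was not counted, here or for the genes below. MPP2 lay between them, overlapping LT-HSC through KO MPP2 replicate 1 and MPP3 through WT MPP2 replicate 1.

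Each step in this order passed the test for Grb10. The log2 fold change was -1.16 (SE 0.30, limma adjusted p = 0.0277) in MPP2 and -2.96 (SE 0.29, limma adjusted p = 4.84e-06) in MPP3, both against LT-HSC. MPP2 exceeded MPP3 by 1.80 (SE 0.30, limma adjusted p = 0.00187), where Grb10 was the 1 member of 6 called and 6.88% of all genes were called. The MPP3 difference and the step between MPP2 and MPP3 kept their calls in all 34 alternatives, with adjusted p of at most 0.000131 and 0.0271. The MPP2 difference from LT-HSC lost its call in 8 of 34, among them leaving out KO LT-HSC replicate 1 (adjusted p = 0.0745) or WT MPP2 replicate 1 (0.0714). Within each of the 4 runs of library numbers in the titles, the mean log2 difference was -0.38 to -1.42 for MPP2 and -2.31 to -3.44 for MPP3. These differences pool the genotypes, and runs 52 to 54 and 81 to 88 hold 1 LT-HSC and 1 MPP2 library each. Megakaryocyte and platelet marker sums were 4742 to 41600 in LT-HSC, 3805 to 79060 in MPP2 and 486 to 2052 in MPP3, so they were also low in MPP3, and their part in the Grb10 levels was not tested.

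Ndn (chr7:62346569-62350262, plus strand, a gene of 1 exon) encodes necdin, a growth suppressor of the MAGE family that restrains cell cycle entry. In WT LT-HSC its normalized counts were 1648, 1140.4, 732 and 870.0, and in KO LT-HSC they were 67.5, 1024 and 1037. In WT MPP2 they were 113, 41.0 and 295, and in KO MPP2 168, 59.5 and 0. In WT MPP3 they were 36.3, 38.9, 0 and 42.4, and in KO MPP3 50.4, 65.2 and 108. In 6 of 7 LT-HSC libraries Ndn was above every progenitor library. The exception, KO LT-HSC replicate 1, lay among the progenitors, and it has a high neutrophil sum. WT LT-HSC replicate 2 has one too, with Ndn at 1140.4. KO LT-HSC replicate 1 also had the highest B cell marker sum of the LT-HSC libraries (2869), and the part of such cells in the Ndn value was not tested.

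Ndn differed by -3.74 (SE 1.12, limma adjusted p = 0.0492) in MPP2 and by -4.29 (SE 1.08, limma adjusted p = 0.0174) in MPP3, both against LT-HSC. The first call was at the edge of the threshold and was lost in 25 of 34 alternatives, with adjusted p up to 0.153. The second was lost in 3 of 34: with the run of library numbers as a covariate (0.0657) and without KO LT-HSC replicate 2 (0.0534) or replicate 3 (0.0546). Without WT MPP3 replicates 2 and 3 it was -3.62 (adjusted p = 0.0462). In every run of library numbers, genotypes pooled, Ndn was lower in the progenitors, by -1.31 to -9.77 in MPP2 and -3.25 to -5.70 in MPP3. Both ends of the MPP2 range compare 1 library with 1. The -9.77 sets WT LT-HSC replicate 4 against KO MPP2 replicate 3, where Ndn was 0. MPP2 and MPP3 did not differ beyond their spread (0.54, 95% interval -1.80 to 2.89, limma adjusted p = 0.849).

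**Figure D1:**
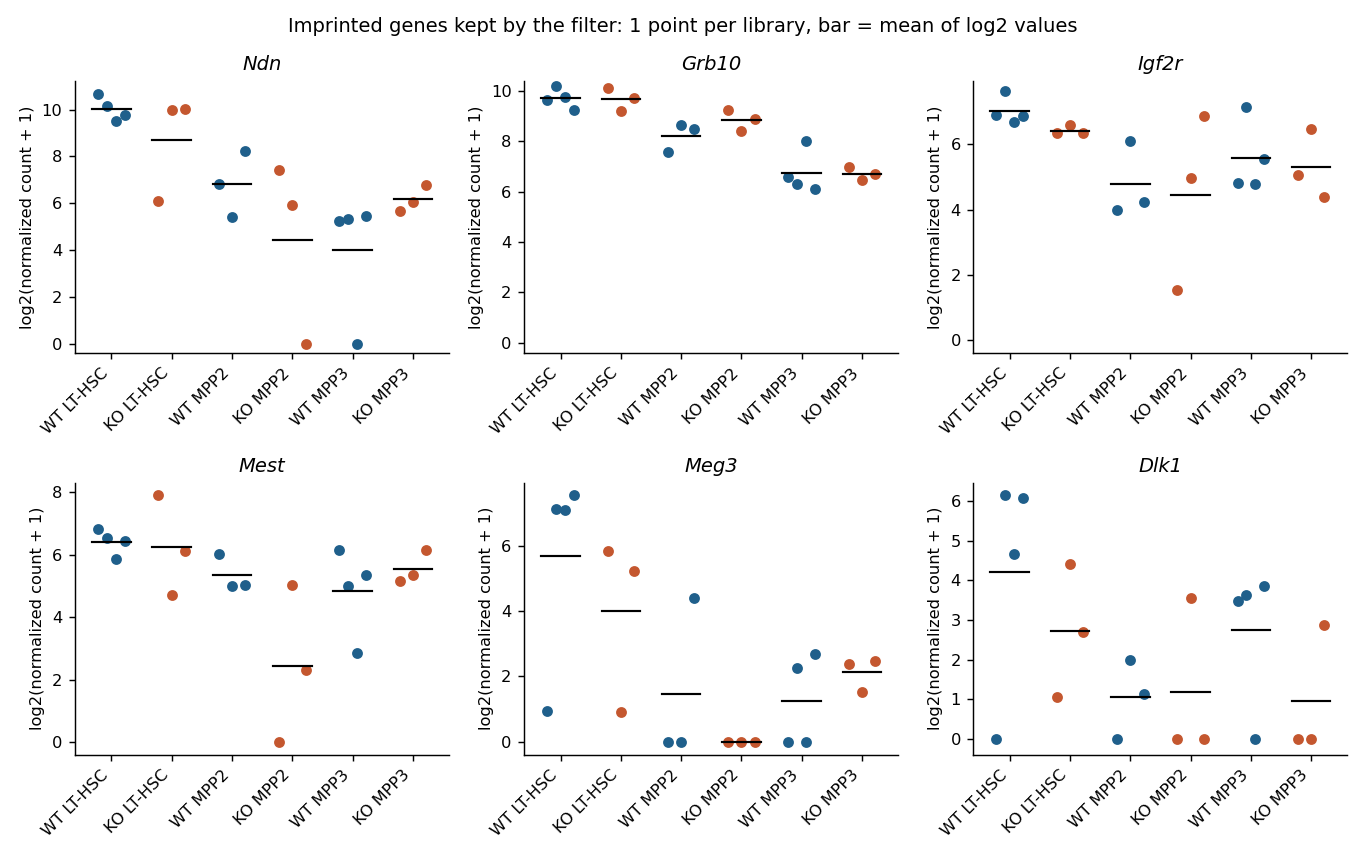
Each panel shows 1 gene on its own vertical scale, log2(normalized count + 1), with 1 point per library, blue for WT and orange for KO, and a bar at the mean of the log2 values. Grb10 steps down from LT-HSC through MPP2 to MPP3, Ndn is high in 6 of 7 LT-HSC libraries, and Meg3 is at or near 0 in most progenitor libraries and in 2 LT-HSC libraries.

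Dlk1 and Meg3 are reciprocal neighbours on chromosome 12. Dlk1 (chr12:109452823-109463336, plus strand) encodes a membrane protein related to the Notch ligands, and Meg3 (chr12:109541001-109571726, plus strand) is a long noncoding RNA from the other parental copy. Meg3 shares 1228 exon bases, 6.8% of its exon length, with Gm26906 on the opposite strand, whose reads cannot be told apart from those of Meg3 without strand. Meg3 had normalized counts of 0.916, 139, 137 and 188 in WT LT-HSC and of 56.6, 0.878 and 36.3 in KO LT-HSC. In WT MPP2 they were 0, 0 and 20.1, in KO MPP2 0, 0 and 0, in WT MPP3 0, 3.77, 0 and 5.41, and in KO MPP3 4.20, 1.89 and 4.54. In all, 5 of 7 LT-HSC libraries lay above every progenitor library, and the other 2, 1 of each genotype, held a single read each. Meg3 differed by -4.11 in MPP2 (SE 1.13, limma adjusted p = 0.0352) and by -3.16 in MPP3 (SE 1.10, limma adjusted p = 0.101), against LT-HSC. The MPP2 call was lost in 13 of 34 alternatives. The MPP3 difference passed in 5 of 34, among them without WT LT-HSC replicate 1, which held 1 of the single reads (adjusted p = 0.0107).

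Dlk1 and Meg3 averaged 4.73 and 4.41 normalized counts per kilobase of exon in LT-HSC. The Dlk1 normalized counts were 0, 70.3, 24.4 and 66.0 in WT LT-HSC and 1.09, 20.2 and 5.45 in KO LT-HSC. Over the progenitors they ran from 0 to 3.00 in WT MPP2, 0 to 10.7 in KO MPP2, 0 to 13.5 in WT MPP3 and 0 to 6.36 in KO MPP3. Among LT-HSC, 4 of 7 libraries exceeded all progenitor libraries, and the groups overlapped. Dlk1 did not pass in MPP2 (-2.36, SE 1.08, limma adjusted p = 0.20) or MPP3 (-1.62, SE 1.04, limma adjusted p = 0.481), and in no alternative of either.

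Mest (chr6:30723547-30748465, plus strand), a paternally expressed gene of the alpha/beta hydrolase family, came close to the threshold. Its normalized counts were 112, 91.2, 57.3 and 85.7 in WT LT-HSC and 241, 25.5 and 69.0 in KO LT-HSC. They were 63.8, 31.0 and 31.9 in WT MPP2, 0, 31.97 and 3.93 in KO MPP2, 69.6, 31.4, 6.24 and 39.7 in WT MPP3, and 34.6, 39.7 and 70.9 in KO MPP3. The populations overlapped, through KO LT-HSC replicates 2 and 3 and WT LT-HSC replicate 3. In MPP2 the difference was -2.43 (SE 0.74, limma adjusted p = 0.0525), and it passed in 6 of 34 alternatives. In MPP3 it was -1.14 (SE 0.71, limma adjusted p = 0.463). Mest shares 912 exon bases, 23.1% of its exon length, with Copg2 on the opposite strand, and since no source used here states whether counting used strand, reads there cannot be assigned to one of the pair.

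Igf2r (chr17:12682406-12769664, minus strand), the receptor that clears IGF2 and carries lysosomal enzymes, was read in all 20 libraries. Its normalized counts were 119, 198, 102 and 117 in WT LT-HSC and 80.6, 94.9 and 79.9 in KO LT-HSC. They were 14.9, 68.0 and 17.7 in WT MPP2, 1.91, 30.2 and 115 in KO MPP2, 27.2, 139, 26.7 and 46.0 in WT MPP3, and 32.5, 88.8 and 19.99 in KO MPP3. Most progenitor libraries lay below the LT-HSC range, but KO MPP2 replicate 3, WT MPP3 replicate 2 and KO MPP3 replicate 2 lay within it. The differences were -2.11 in MPP2 (SE 0.70, limma adjusted p = 0.0769) and -1.28 in MPP3 (SE 0.68, limma adjusted p = 0.352). The first passed without KO MPP2 replicate 3 (adjusted p = 0.0188), the library with the fewest genes.

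The other 4 genes were close to absent. H19 (chr7:142575529-142578143, minus strand), the noncoding RNA next to Igf2, had reads in 3 libraries, all LT-HSC: 11.4 in WT replicate 2, 4.24 in WT replicate 3 and 5.45 in KO replicate 3. Igf2 (chr7:142650766-142666816, minus strand) stood at 38.0 in WT LT-HSC replicate 2 and otherwise at 2.51 in WT MPP3 replicate 2 and 1.05 in KO MPP3 replicate 1, with 0 in the other 17 libraries. Plagl1 (chr10:13060504-13131694, plus strand), a zinc finger factor that regulates other imprinted genes, was 52.2 in WT LT-HSC replicate 2 and at most 7.005 in any other library. Peg3 (chr7:6703892-6730431, minus strand), another zinc finger factor, was 57.1 in WT LT-HSC replicate 4 and at most 6.35 in any other.

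A single stem cell library held most of the reads of 3 of these genes: 40 of 43 Igf2 reads, 55 of 72 Plagl1 reads and 64 of 77 Peg3 reads. H19, Igf2 and Plagl1 all peaked in WT LT-HSC replicate 2, a library with a high neutrophil sum, in which 4 of 11 marrow stroma markers were detected and summed to 69.3, within the range of 54.4 to 122 over WT LT-HSC. What those cells contributed was not tested. With a floor of 3 counts over the group, H19 was at least 6.15-fold lower in MPP2 and 7.07-fold lower in MPP3 than in LT-HSC, Igf2 at least 11.1-fold and Peg3 at least 18.8-fold lower in MPP2. These bounds cover counting error only and, for Igf2 and Peg3, rest on the 1 library each. Without WT LT-HSC replicate 2, which holds 12 of the 22 H19 reads, the H19 bounds were 3.30-fold and 3.79-fold. In a fit without the filter none of the 4 passed in either comparison, with limma adjusted p of 0.309 for H19 in MPP2 and 0.337 in MPP3.

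**Figure D2:**
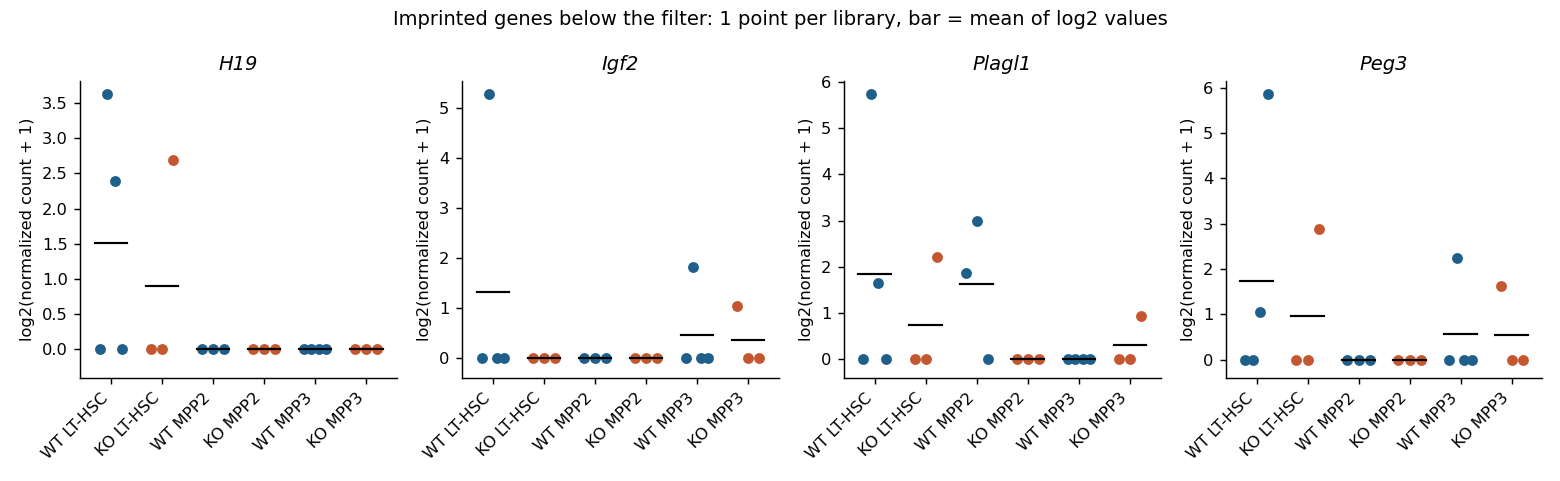
The panels show H19, Igf2, Plagl1 and Peg3 as log2(normalized count + 1), 1 point per library, blue for WT and orange for KO, with a bar at the mean of the log2 values and a separate vertical scale for each gene. Most libraries are at 0, and the high points of Igf2, Plagl1 and Peg3 (38.0, 52.2 and 57.1) are 1 WT LT-HSC library each.

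Per kilobase of exon, the order in LT-HSC was Ndn (252 ± 129, SD, n = 7), Grb10 (93.9 ± 24.4), Mest (24.7 ± 17.5), Igf2r (12.2 ± 4.38), Dlk1 (4.73 ± 5.26) and Meg3 (4.41 ± 4.12), all in normalized counts per kilobase. Grb10 ranged from 65.2 to 128 and Mest from 6.46 to 61.0, so these neighbours in the order did not overlap. Every other pair of neighbours did, Ndn and Grb10 because KO LT-HSC replicate 1 had an Ndn level of 18.3. In MPP2 Grb10 (43.1 ± 15.2, n = 6) stood above Ndn (30.5 ± 28.9), and in MPP3 Grb10 and Ndn were at 12.8 ± 7.11 and 13.2 ± 8.89 (n = 7), again with overlapping ranges.

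**Figure D3:**
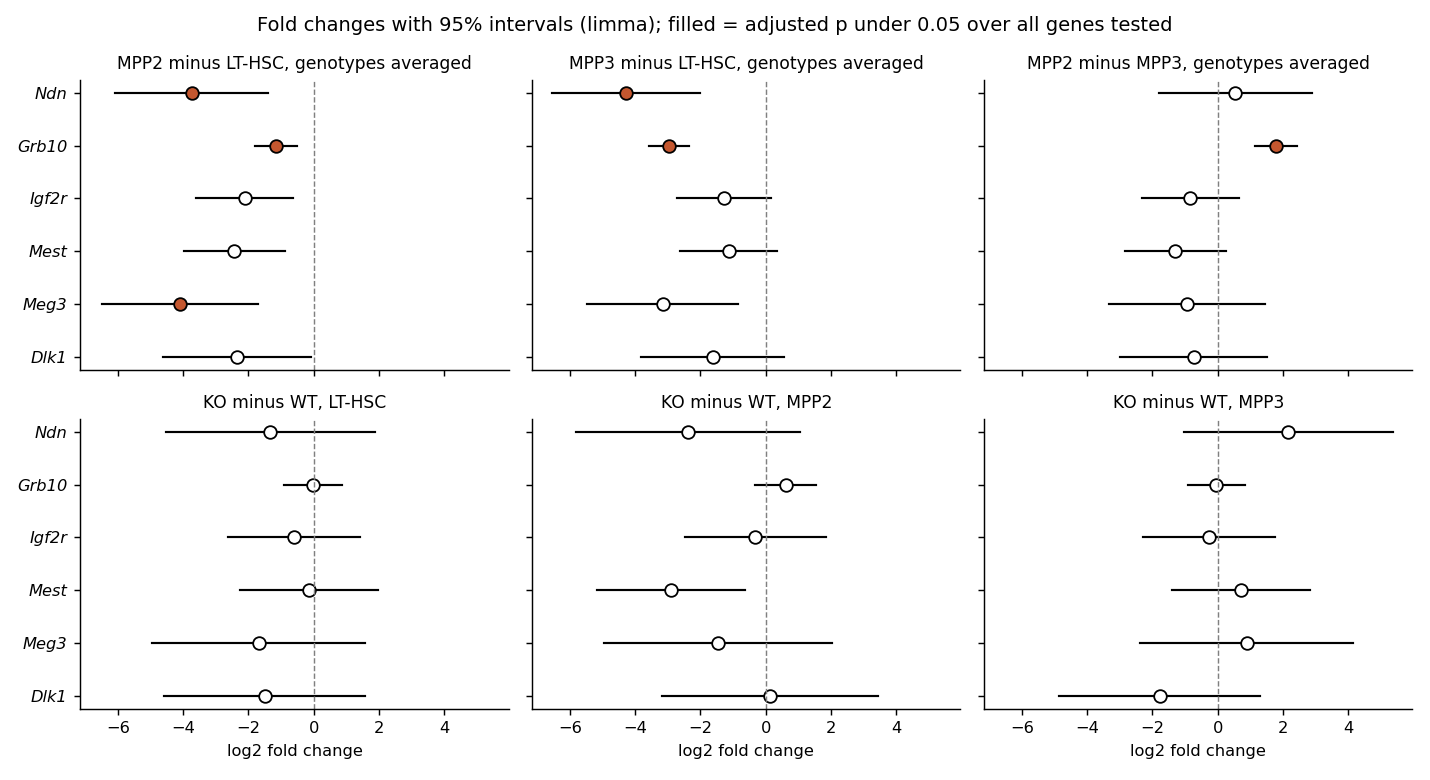
Points are log2 fold changes of log2(normalized count + 1) for the 6 tested genes and lines are 95% intervals from limma, with filled points where the adjusted p over all genes was under 0.05. The upper panels compare populations over both genotypes, with filled points left of 0 for Ndn, Grb10 and Meg3 in MPP2 and for Ndn and Grb10 in MPP3 and right of 0 for Grb10 in MPP2 minus MPP3, and the lower panels compare KO with WT, where no point is filled.

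Taken by genotype, Grb10 gave the clearest differences. In WT, MPP3 against LT-HSC called 2 of 6 members beside 3.97% of all genes: Grb10 (-2.95, SE 0.39, limma adjusted p = 0.000221) and Ndn (-6.04, SE 1.41, limma adjusted p = 0.0183). The WT Ndn call was lost in 5 of 34 alternatives: without WT LT-HSC replicate 1 (adjusted p = 0.0561), WT LT-HSC replicate 2 (0.0529) or WT MPP3 replicate 3 (0.0578), without WT MPP3 replicates 2 and 3 together (0.132), and by edgeR on 18 libraries (0.0828). In KO the same comparison called Grb10 alone (-2.98, SE 0.45, limma adjusted p = 0.0014), beside 1.91% of all genes. Ndn in KO was -2.54 (SE 1.63, limma adjusted p = 0.708), with the low KO LT-HSC replicate 1 among its 3 stem cell libraries. In MPP2 against MPP3, Grb10 was called higher in KO (2.13, SE 0.45, limma adjusted p = 0.0165), beside 2.79% of all genes. The KO call was lost without KO MPP2 replicate 1 (adjusted p = 0.0593), KO MPP3 replicate 2 (0.0732) or KO MPP3 replicate 3 (0.0667).

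No member was called in MPP2 against LT-HSC within one genotype, beside 0.833% of all genes in WT and 1.2% in KO. After adjustment edgeR called 0 in WT and 0 in KO, and DESeq2 1 and 2. At an unadjusted p under 0.05 limma counted 5 of the 6 in WT and 3 in KO, beside 2102 and 2955 of all 17160 genes. Without WT MPP3 replicates 2 and 3, which enter this fit only through the shared spread, Grb10 passed in WT (-1.48, adjusted p = 0.0405). In WT the MPP2 against MPP3 comparison called 0 members by limma, edgeR and DESeq2, beside 0.431% of all genes. At an unadjusted limma p under 0.05 it counted 1 member, beside 1642 of all 17160 genes. Grb10 was that member, at 1.47 (SE 0.42, limma adjusted p = 0.144), and it passed without WT MPP3 replicate 3 (adjusted p = 0.0226), the WT MPP3 library with a value of 257.

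Loss of Hopx moved none of the 6 members past the threshold. The genotypes were not balanced for sex as read from transcripts. WT libraries numbered 52 to 54 were female and the other WT libraries male. KO libraries numbered 118 to 120 were male and the other KO libraries female. Sex entered only as a covariate in 1 of the alternatives, and its part in the KO differences was not otherwise tested. KO against WT called 0 members in LT-HSC, in MPP2, in MPP3 and over their average by limma, edgeR and DESeq2, beside 0.00583%, 0.0117%, 0.00583% and 0.0117% of all genes. At an unadjusted p under 0.05 limma counted 0, 1, 0 and 0 members, beside 456, 1353, 347 and 864 of all 17160 genes. Grb10 was bounded most closely, with a KO difference of -0.02 in LT-HSC (95% interval -0.90 to 0.85), 0.61 in MPP2 (-0.32 to 1.55) and -0.04 in MPP3 (-0.92 to 0.83). For Ndn the intervals ran from -4.53 to 1.88 in LT-HSC, -5.80 to 1.05 in MPP2 and -1.03 to 5.38 in MPP3, so changes of several fold in either direction could not be detected at this spread.

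Mest in MPP2 was the member below an unadjusted p of 0.05. Its KO libraries read 0, 31.97 and 3.93 against 63.8, 31.0 and 31.9 in WT, a difference of -2.90 (SE 1.07, limma adjusted p = 0.537). The groups overlapped through KO MPP2 replicate 2, and without that library the adjusted p was 0.0376. Meg3 and Dlk1 had lower means in KO than in WT LT-HSC, 31.3 against 116 and 8.91 against 40.2 normalized counts, but both groups held libraries near 0 (limma adjusted p = 1 for each). A test for a KO effect that varies with the population called 0 members by limma, edgeR and DESeq2, 0 at an unadjusted p under 0.05, and 0% of all genes.

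The 10 genes lie on chromosomes 6, 7, 10, 11, 12 and 17, and their imprinted neighbours were taken from a list of 56 other imprinted genes, of which 37 passed the filter. Of these 37, 6 were called lower and 0 higher in MPP2 than in LT-HSC, and 5 lower and 1 higher in MPP3. The shares called lower were 16.2% and 13.5%, against the 5.08% and 4.18% of all genes, and edgeR called 4 and 5 in either direction. Snrpn, which encodes a splicing protein and lies in the same chromosome 7 region as Ndn, differed by -5.29 in MPP2 (SE 0.53, limma adjusted p = 2.32e-05) and -4.46 in MPP3 (SE 0.51, limma adjusted p = 1.77e-05). Its normalized counts ran from 16.7 to 105 over the 7 LT-HSC libraries, from 0 to 0.874 in MPP2 and from 0 to 4.72 in MPP3, so the stem cells did not overlap either progenitor. Snrpn separated LT-HSC from the progenitors more fully than Ndn did, KO LT-HSC replicate 1 included (44.7). It held 399 reads in LT-HSC, 1 in MPP2 and 10 in MPP3, so it passed the filter through its LT-HSC reads. Its place among the 6 and 5 called lower therefore partly follows from the filter. Snrpn shares its transcript with Snurf, so its level is uncertain where counting splits the reads of overlapping genes. Ube3a and Snhg14 of the same region were called in neither comparison. Ube3a averaged 2681 in LT-HSC, 2642 in MPP2 and 2715 in MPP3, and Snhg14 261.5, 152 and 235.

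Airn, the noncoding RNA transcribed across Igf2r from the other parental copy, differed by -3.94 in MPP2 (SE 1.04, limma adjusted p = 0.0287) and -4.23 in MPP3 (SE 1.01, limma adjusted p = 0.0121). It averaged 55.4 in LT-HSC against 7.47 in MPP2 and 6.03 in MPP3. It shares no exon bases with Igf2r in the annotation, but reads within introns of the pair cannot be assigned without strand. Cdkn1c, the cell cycle inhibitor p57, on the same chromosome as H19 and Igf2, fell from 439.9 ± 183 in LT-HSC (n = 7) to 61.0 ± 18.6 in MPP2 (n = 6) and 55.0 ± 65.6 in MPP3 (n = 7), with log2 differences of -2.71 and -3.39 (limma adjusted p = 0.00264 and 9.36e-05). Among the neighbours of Dlk1 and Meg3, Rian and Rtl1 had their highest values in WT LT-HSC replicate 4, at 40.2 and 60.7. Meg3 was also highest in that library (188). Rian did not follow Meg3 elsewhere: it was 0 in every KO LT-HSC library and reached 25.5 in KO MPP3. Mirg, of the same region, was highest in KO LT-HSC, at 9.80, and at most 2.85 in WT LT-HSC.

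Ppp1r9a, an imprinted gene of chromosome 6, was called lower in MPP2 (-1.15, SE 0.30, limma adjusted p = 0.0281) and Sgce, of the same region, in MPP3 (-2.09, SE 0.38, limma adjusted p = 0.00165). Peg13, a noncoding RNA, was lower in MPP2 (-1.04, SE 0.27, limma adjusted p = 0.0246). Cd81, a tetraspanin of the cell surface, was lower in both, by -0.40 and -0.61 (limma adjusted p = 0.0443 and 0.00177). The 1 imprinted gene called higher in MPP3 than in LT-HSC was H13, a signal peptide peptidase, at 0.36 (SE 0.11, limma adjusted p = 0.0476). Between MPP2 and MPP3, Slc22a3 was higher in MPP2 (0.80, SE 0.23, limma adjusted p = 0.0467) and Osbpl5 (-4.40, SE 0.77, limma adjusted p = 0.00243) and H13 (-0.58, SE 0.11, limma adjusted p = 0.00417) were lower. KO against WT called 0 of the 37 in each population by limma, edgeR and DESeq2. In LT-HSC, MPP2 and MPP3, 1, 5 and 1 had an unadjusted limma p under 0.05. Of all 17160 genes, 456, 1353 and 347 did. The 1 in LT-HSC was Snrpn, at -1.52 in KO (SE 0.72, limma adjusted p = 1), and the smallest p in MPP2 was that of Osbpl5, at -3.92 (SE 1.13, limma adjusted p = 0.352).

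**Figure D4:**
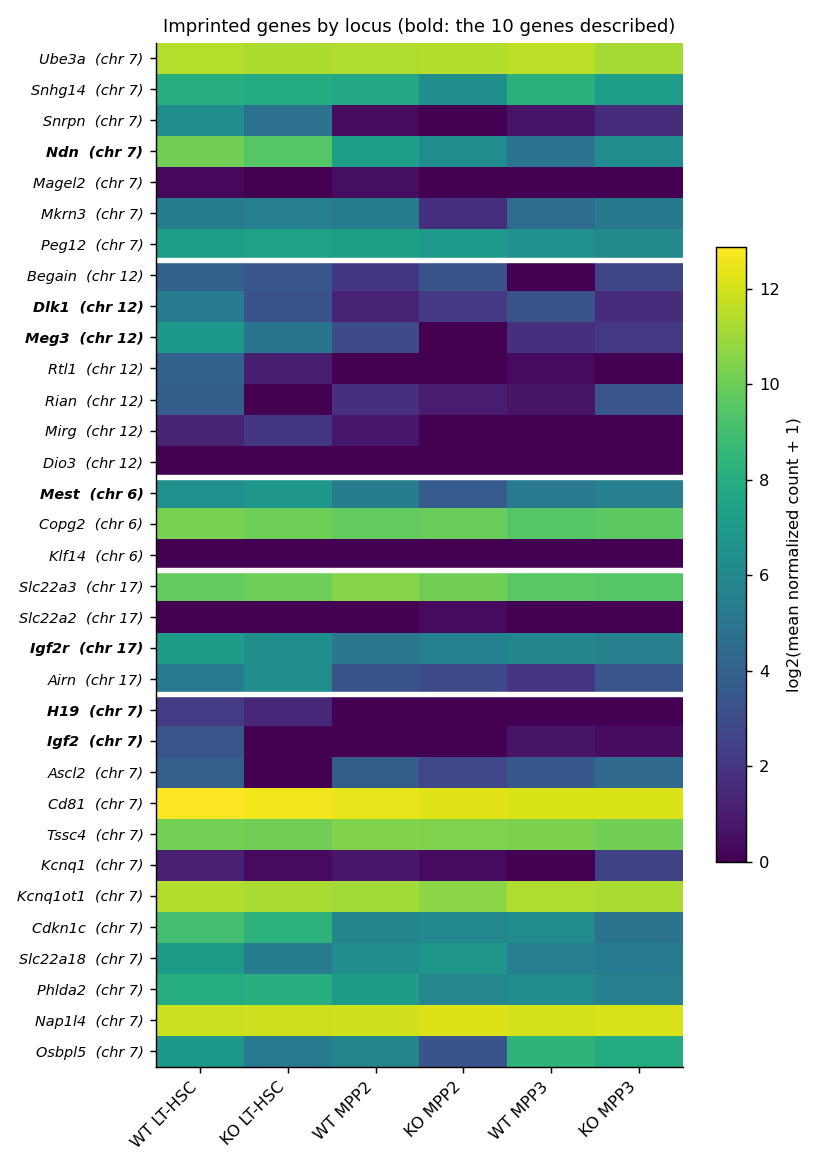
Rows are imprinted genes grouped by region, with the 10 genes described in bold where they lie in these regions and chromosome numbers in brackets; columns are the 6 groups, and colour is log2(mean normalized count + 1), to be compared along a row because genes differ in length. Ndn, Snrpn, Meg3 and Cdkn1c are brightest in the 2 LT-HSC columns, while Ube3a and Nap1l4 keep a similar colour across the row.

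Of 23 genes of IGF and insulin signalling, the pathway that several members act on, 18 were tested. The shares called were 5.56% in MPP2 and 11.1% in MPP3, near the 7.32% and 7.4% of all genes. In MPP2 against LT-HSC 1 was called lower, Pik3r1, the regulatory subunit of PI3-kinase (-0.95, SE 0.18, limma adjusted p = 0.00454). In MPP3 1 was called higher, Igfbp4, which binds IGFs (1.59, SE 0.17, limma adjusted p = 1.23e-05), and 1 lower, Igf2bp2, an RNA-binding protein of Igf2 transcripts (-2.51, SE 0.73, limma adjusted p = 0.0407). Between the progenitors, Igf2bp2 was higher in MPP2 (2.55, SE 0.75, limma adjusted p = 0.0486), and Igfbp4 (-1.24, SE 0.18, limma adjusted p = 0.000552) and Foxo3 (-0.76, SE 0.20, limma adjusted p = 0.0272) were lower.

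Of 15 Notch pathway genes, the family to which Dlk1 is related, 11 were tested. Over all genes, 7.32% were called in MPP2 and 7.4% in MPP3, both against LT-HSC, and 6.88% between MPP2 and MPP3. Jag1 and Notch3 were called lower in MPP2 (-3.70 and -3.13, limma adjusted p = 0.011 and 0.0139), and Jag1, Notch3 and Hes1 in MPP3 (-2.77, -3.80 and -2.91, limma adjusted p = 0.0357, 0.00161 and 0.039). By edgeR 0 genes of the list were called in MPP2 and 2 in MPP3. The receptor Notch1 went the other way in MPP3 (2.31, SE 0.43, limma adjusted p = 0.00188), and was lower in MPP2 than in MPP3 (-2.77, SE 0.44, limma adjusted p = 0.00135).

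Of 18 factors that maintain imprints or read DNA methylation, 15 were tested. The shares of all genes called were 7.32% in MPP2 and 7.4% in MPP3, both against LT-HSC. Tet3, which oxidises methylated cytosine, and Uhrf1, which brings the maintenance methyltransferase to replicating DNA, were called higher in MPP2 than in LT-HSC (0.71 and 0.75, limma adjusted p = 0.0291 and 0.0394). In MPP3 against LT-HSC limma and edgeR called 0 and DESeq2 1. At an unadjusted limma p under 0.05 there were 4, beside 3078 of all 17160 genes. Tet3 had the smallest p there (0.56, SE 0.18, limma adjusted p = 0.0739). Between MPP2 and MPP3 limma, edgeR and DESeq2 called 0, with 3 at an unadjusted limma p under 0.05, beside 3522 of all genes.

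As a comparison, 20 genes of quiescent stem cells that are not imprinted were all tested. In MPP2, 9 were called lower and 1 higher, and in MPP3 9 lower and 1 higher, with medians of -0.98 and -1.22. Of all genes, 5.08% and 4.18% were called lower and 2.24% and 3.22% higher. Mllt3, a transcription regulator of stem cells, Nr4a1, a nuclear receptor, and Txnip, a thioredoxin-binding protein, were lower in MPP2 by -2.29, -4.23 and -1.36 (limma adjusted p of at most 0.00602). The transcription factors Gata2 (-1.73) and Meis1 (-1.22) were lower in MPP3, with limma adjusted p of 4.3e-05 and 5.69e-05. Tek (2.85) and Gata2 (1.58) were higher in MPP2 than in MPP3 (limma adjusted p = 0.00201 and 0.000449). In that comparison 4 of the list were called higher and 3 lower, beside 6.88% of all genes called. Against LT-HSC, the 1 higher was Trp53 in MPP2 (0.46, limma adjusted p = 0.0318) and Cdkn1a in MPP3 (1.76, limma adjusted p = 0.0136). KO against WT called 0 genes of the IGF, Notch, imprint maintenance and quiescence lists in each population by limma, edgeR and DESeq2. At an unadjusted limma p under 0.05 there were at most 4 of a list, in MPP2, beside 1353 of all 17160 genes there.

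Across the 20 libraries, genes with patterns most like each tested member were found by Pearson correlation of log2(value + 1) among 10057 or 10056 genes whose mean log2 CPM was 3 or more. They describe these libraries, which share depth, cell population and the marker differences above, and carry no test. The closest to Grb10 were Tmem40 (0.936), Tmem246 (0.921) and Cavin3 (0.906), and to Ndn Snap47 (0.906), Vipr2 (0.888) and Cpxm1 (0.875). Meg3 was closest to Ppp1r9a (0.893), the imprinted gene of chromosome 6 named above, then Ctdsp2 (0.831) and Pld3 (0.827). Dlk1 was closest to Igf1r (0.759), the receptor for IGF1 and IGF2, then Gtpbp2 (0.672) and Ahcyl2 (0.667). Igf2r was closest to Ccnd1 (0.806), Tceal1 (0.804) and Nap1l3 (0.787), and Mest to Manea (0.842), Snx16 (0.836) and Vwa8 (0.82). Among the 6 members themselves, r ran from 0.06 between Grb10 and Mest to 0.571 between Dlk1 and Meg3.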

How the data were processed

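The deposited table holds a normalized signal: gene counts that the authors divided by 1 size factor per library. Per the submitters' processing notes, the tools were TopHat2 2.1.1, HTSeq 0.11.2 and DESeq, with GRCm38. No source used here gives the annotation release or strand setting. Whole reads were recovered from the values (100% whole, largest deviation 1.86e-07). In 2 libraries, where 1 read is worth 1.00868 and 1.00071, an automatic check cannot judge this, so edgeR was also run on the other 18.

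The test planned for raw counts was replaced, because the values are scaled: limma 3.58.1 (trend, robust) in R 4.3.3 on log2(value + 1), with 6 group means over 20 libraries and 17160 genes kept by edgeR's filter, and Benjamini-Hochberg adjustment at 0.05. Symbols, coordinates and exon lengths came from GENCODE M21, which named 45143 of 45706 identifiers, and start windows from RefSeq. Groups came from the labels, and replicate numbers follow accession order. No library was a copy of another (chi-square per gene of at least 30.8 for each pair in a group).

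Alternatives were another pseudocount (0.5 or 16), no filter, TMM scaling, edgeR 4.0.16, DESeq2 1.42.0, the run of library numbers or the sex read from transcripts as a covariate, only the groups compared, each library left out and libraries 52 to 54 left out. Further sets, chosen after seeing the data, were edgeR on 18 libraries and 3 pairs of libraries left out together. On simulated counts limma and edgeR kept their share of false calls under the limit set for that check, and DESeq2 did not. That limit was not the threshold used for calls here. The simulation did not copy the spread of these libraries, those that stand apart or the members with few reads. It therefore cannot decide how many of the calls here are false. The members and gene lists were chosen with earlier results of these data known. All 10 members are named. From each other list, up to 4 called genes per comparison by smallest p were named, or the 2 of smallest p, and a few of these are left out. Airn, Snhg14, Ube3a, Rian, Rtl1, Mirg, Trp53, Cdkn1a and the libraries that stand apart were picked after their values were seen. Some results of the quiescence list are not reported here.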

Additional observations from a re-analysis of the deposited data

Results flagged for a closer look

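In groups of 4, a library was picked out when its gap to the nearest other was large for the group's range by Dixon's criterion. For normally distributed values, chance meets it in about 1 of 20 groups. A group with reads in a single library meets it whatever the value. Of 18 groups of 4 libraries with reads, 8 met it, some of them where the other libraries are at 0. This number therefore cannot be set against 1 in 20. In WT LT-HSC, Igf2 in replicate 2 was 38.0 with 0 next, Plagl1 in replicate 2 was 52.2 with 2.12 next, and Peg3 in replicate 4 was 57.1 with 1.06 next. In WT MPP3 replicate 2, Igf2r was 139 with 46.0 next, Igf2 2.51 with 0 next, and Peg3 3.77 with 0 next. In WT MPP3 replicate 3, Grb10 was 257 with 94.8 next, and Ndn was 0 where the next lowest library was at 36.3. Both of these WT MPP3 libraries have the high neutrophil sums (25622 and 18797) and the low erythroid sums (56.5 and 68.6) given above, and the part of these differences in the values was not tested.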

How the results depend on the processing

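No paired analysis was made, because the labels give no replicate number that groups share. The libraries numbered 52 to 54, 101 to 103, 115 to 117 and 118 to 120 each hold 1 library of every population, in 1 genotype. A fit paired by these sets was not tested. With the run of library numbers as a covariate, Ndn in MPP3 against LT-HSC lost its call (adjusted p = 0.0657) and Meg3 gained one (0.0327). Each member's result was recomputed under single settings and with each of 20 libraries left out. Of 1023 values under single settings 966 kept their direction and side of the threshold, 20 lost a call, 14 gained one and 23 changed sign. With 1 library left out the numbers were 1413, 38, 12 and 17 of 1480. The cause of these changes was not tested. Spread between libraries, and few reads for Meg3, Dlk1 and the 4 genes below the filter, limit what can be detected.

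Members called in MPP2 against LT-HSC, 3 over both genotypes, numbered 1 without the filter, 1 with only the groups compared, 0 by edgeR on 18 libraries, 0 without WT LT-HSC 4 and KO LT-HSC 1, and 0 to 4 with 1 library left out. In MPP3 the number with 1 library left out was 1 to 3. In WT, DESeq2 called 1 in MPP2 and edgeR on 18 libraries 1 in MPP3, leaving out WT MPP3 2 and 3 gave 1 in each, and leaving out 1 library gave 0 to 1 in MPP2, 1 to 2 in MPP3 and 0 to 1 in MPP2 against MPP3. In KO, DESeq2 called 2 in MPP2, leaving out 1 library gave 0 to 1 there and 0 to 2 in MPP2 against MPP3, and with only the groups compared the latter was 0. In KO against WT in MPP2 the number with 1 library left out was 0 to 1. For the other lists, edgeR called 0 of the Notch genes in MPP2 and 2 in MPP3 where limma called 2 and 4, 1 IGF gene in MPP3 where limma called 2, and 1 maintenance factor in MPP2 where limma called 2.

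Changes of sign were all in differences that did not pass the test. Mest, MPP3 against LT-HSC in KO, was 0.13 without WT LT-HSC 4 and KO LT-HSC 1, and -1.47 to 0.13 with 1 library left out. In KO against WT LT-HSC, Mest was 0.37 by edgeR, DESeq2 and edgeR on 18 libraries, 0.14 with sex as a covariate and -0.98 to 0.61 with 1 library left out, where Grb10 ran from -0.24 to 0.21. In MPP2, Igf2r was 0.10 with a pseudocount of 16, 0.54 by edgeR, 0.55 by DESeq2, 1.60 by edgeR on 18 libraries and -1.52 to 1.14 with 1 left out. Dlk1 there was -0.026 with a pseudocount of 0.5 and -1.04 to 0.73 with 1 left out. Meg3 was 0 without libraries 52 to 54 and without WT MPP2 3 and KO MPP2 3, and -2.20 to 0 with 1 left out, and Ndn was 0.55 without that MPP2 pair. In MPP3, Igf2r was 0.092 with the library number run as a covariate, 0.26 without libraries 52 to 54 and -0.85 to 0.26 with 1 left out, and Grb10 -0.25 to 0.37. Without WT MPP3 2 and 3, Igf2r there was 0.13, Grb10 0.36 and Mest -0.19. Averaged over populations, Igf2r was 0.13 by edgeR on 18 libraries and -0.80 to 0.090 with 1 left out, Meg3 0.30 with the library number run as a covariate and 0.0056 without libraries 52 to 54, and Ndn 0.46 without the MPP2 pair and -1.002 to 0.23 with 1 left out. Ndn in MPP2 against MPP3 ran from -0.20 to 1.65 and was -0.12 without WT MPP3 2 and 3.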
